A study of Homo sapiens with 2 samples.

Results

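The zinc finger genes of human chromosome 19 were examined in MOLM-13, an acute myeloid leukemia cell line. Genes were taken as members when their name was ZNF followed by a number, with or without a final letter, their locus lay on chromosome 19 and their reads in both libraries summed to at least 50. Of 263 such ZNF genes on chromosome 19, 145 met the read minimum, 53 had fewer reads and 65 had 0 reads in both libraries. The members were thus chosen by their summed read counts, and not by the direction of change. A gene with few reads in 1 library could still pass this minimum through its reads in the other. The 145 genes were a small part of the 50868 genes in the table and of the 12290 genes that had at least 50 reads. RNA had been sequenced from MOLM-13 cells with the control vector (Vector, 1 library) and from MOLM-13 cells labelled as overexpressing UNC5B, a netrin receptor (OE-UNC5B, 1 library). According to the methods, UNC5B was delivered with a lentivirus that used a CMV promoter and carried mCherry and a puromycin marker. The labels name no further treatment, and both libraries share the cell line and culture medium.

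The targeted gene was examined first. UNC5B (chr10:71212570-71302864, GRCh38) had 0 reads in both libraries, so these counts do not show its overexpression, and the treated library is named by its label throughout. Each direction below rests on that label. The libraries held 13715566 and 15637137 counted reads. All 10 myeloid markers examined had reads in both libraries, whereas the epithelial markers EPCAM, CDH1 and KRT8, the endothelial markers CDH5 and KDR and the fibroblast markers DCN and POSTN were at 0 in both. The remaining markers of these lists had at most 21 reads in a library, apart from PECAM1, which myeloid cells also express, at 1626 and 1471. The 10 myeloid markers summed to 74366 Vector reads against 50191 in the library labelled OE-UNC5B, and LYZ alone had 51742 and 23700. Of the 10, LYZ and MPO (3363 and 1553 reads) were lower and PTPRC (1592 and 3102) and MEIS1 (247 and 542) were higher by at least 1.5-fold, and the median log2 fold change of the list was 0.15, with 6 above 0. Whether these differences bear on the ZNF genes was not tested. In bulk RNA, fewer cells that express a gene and less RNA per cell cannot be told apart. Each group has a single library, so differences could not be checked against replicates and no test of the conditions could be made.

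Zinc fingers of the C2H2 type are short loops in which a pair of cysteines and a pair of histidines hold a zinc ion, and a row of such fingers reads a stretch of DNA. Most genes of this class on chromosome 19 arose by tandem duplication and lie in clusters of relatives. Many carry a KRAB domain at their start, which binds the corepressor TRIM28 and through it brings SETDB1, a histone H3 lysine 9 methyltransferase, and heterochromatin proteins to DNA, often at transposable elements. The encoded proteins of the 141 protein-coding members held between 1 and 29 fingers, with a median of 12, and a sequence pattern for the KRAB A box was found near the start of 111 of them. The pattern misses divergent KRAB copies, so 30 members without a match are not shown to lack the domain. The other 4 members were pseudogenes.

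A finger and the linker to the next finger are shown for members with a large difference between the libraries, since they display the shared design that makes these genes alike in sequence. They are the first fingers with such a linker in the canonical GENCODE 44 transcripts of 8 genes with at least 100 reads, 4 of them among the lowest and 4 among the highest in the library labelled OE-UNC5B. Passed over were ZNF887P, a pseudogene, ZNF584, where no finger with this exact linker was found, and members with fewer reads such as ZNF546 and ZNF559. Each runs from 5′ to 3′ on the plus strand of GRCh38, the genome build of the deposited loci, lies within 1 coding exon and has 78 bases. Capitals mark the codons of the zinc-binding cysteines and histidines, and the last 15 bases encode the linker.
ZNF791, chr19:12627929-12628006: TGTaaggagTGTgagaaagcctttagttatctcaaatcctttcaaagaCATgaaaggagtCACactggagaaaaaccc
ZNF17, chr19:57420570-57420647: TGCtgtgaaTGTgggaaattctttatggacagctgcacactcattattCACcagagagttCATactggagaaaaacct
ZNF808, chr19:52553697-52553774: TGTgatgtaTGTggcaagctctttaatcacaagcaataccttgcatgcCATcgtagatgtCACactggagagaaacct
ZNF875, chr19:37362870-37362947: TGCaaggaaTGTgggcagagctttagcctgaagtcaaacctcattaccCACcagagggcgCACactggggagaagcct
ZNF701, chr19:52582873-52582950: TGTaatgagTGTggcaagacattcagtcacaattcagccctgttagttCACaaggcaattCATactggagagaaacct
ZNF333, chr19:14718513-14718590: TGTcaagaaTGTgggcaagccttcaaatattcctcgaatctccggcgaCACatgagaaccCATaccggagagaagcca
ZNF302, chr19:34684644-34684721: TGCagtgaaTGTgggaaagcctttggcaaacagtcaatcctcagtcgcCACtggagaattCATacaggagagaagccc
ZNF583, chr19:56423298-56423375: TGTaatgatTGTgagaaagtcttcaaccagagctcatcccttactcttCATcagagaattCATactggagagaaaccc

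Between pairs of these 8 stretches, from 52.6% (ZNF808 and ZNF333) to 71.8% (ZNF17 and ZNF583) of the bases were identical. The first 4 stretches belong to genes below Vector and the last 4 to genes above it, as they were picked. How much of each gene's sequence also occurs in another annotated gene was measured on transcripts, with both strands searched. Genes that overlap the member's own locus were counted as other genes, so the shares reflect overlap as well as likeness between relatives. For the median member, 96.6% of the 75-base stretches occurred in no other gene, but 41 members were under 90% and 6 were under 50%, with ZNF56 lowest at 8.07%. ZNF446, at 49.4%, shared most with ZNF324, which overlaps it. Reads from shared stretches can be counted for either gene or for none, and the counts of such members are uncertain.

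Taken as a group, the chromosome 19 ZNF genes were at nearly the same level in both libraries, while single members differed up to several-fold in either direction. Their log2 fold change (library labelled OE-UNC5B over Vector, on counts scaled with TMM factors and with 0.5 reads added) had a median of 0.03, with quartiles at -0.27 and 0.29, and ranged from -2.27 to 2.47. The median over all 12290 genes was -0.01. Of the 145 members, 68 lay below 0. Their reads summed to 36071 in Vector against 43853 in the library labelled OE-UNC5B, which were 0.263% and 0.280% of all counted reads. With TMM scaling the sum was higher by 0.04 on the log2 scale (0.02 to 0.06), and with library totals, as in these shares, by 0.09. All such ranges in parentheses are 95% Clopper-Pearson intervals of the reads and cover counting error only.

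Differences of at least 1.5-fold were counted in each direction and read against the same count over all genes. Such a decrease in the library labelled OE-UNC5B was seen in 14 of 145 members (9.66%), against 9.09% of all genes. An increase of this size was seen in 19 members (13.1%), against 9.98% of all genes. At 2-fold, 5 members were lower against 2.42% of all genes, and 7 were higher against 2.92%. The read interval lay wholly beyond 1.5-fold in 6 members that were lower, against 3.81% of all genes, and in 9 that were higher, against 4.41%. The lower share was close to the background and the higher share was somewhat above it, a gap that was not tested. Of the 48 members under 200 reads, 3 were lower (6.25%) and 9 were higher (18.8%) by at least 1.5-fold, and of the 97 with more reads 11 were lower (11.3%) and 10 were higher (10.3%). The shares of all genes in these read ranges were not computed. The background depends on depth, since with a minimum of 10 reads 12.5% of all genes were lower and 12.9% were higher. With a minimum of 100 reads, 13 of 125 members were lower and 13 were higher (10.4% each, against 8.32% and 9.21% of all genes). The interval covered 0 in 78 members. It lay below 0 in 34 (23.4%), against 30.6% of all genes, and above 0 in 33 (22.8%), against 29.6% of all genes, which had more reads.

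**Figure D1:**
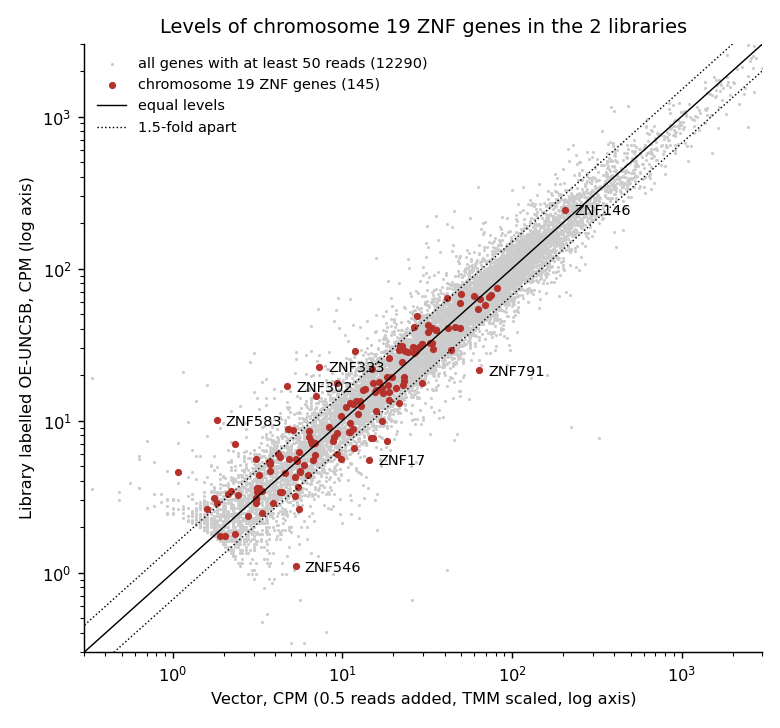
Level of each gene in Vector (x axis) and in the library labelled OE-UNC5B (y axis) in CPM, which are read counts per library size, scaled with TMM factors, on log axes; red points are the 145 chromosome 19 ZNF genes, grey points are all 12290 genes with at least 50 reads, and dotted lines mark a 1.5-fold difference. Most red points lie between the dotted lines, with 14 below and 19 above them.

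Most members were expressed at low levels. Their median FPKM, a level per exon length and library size, was 1.22 in Vector against 1.40 in the library labelled OE-UNC5B, whereas the medians of all genes with at least 50 reads were 4.17 and 4.42. The members had a median of 336 reads over both libraries, all genes 944, and 48 members had under 200 reads. ZNF146, a protein made of fingers with no repressor domain, had the highest level. It had 2785 reads in Vector against 3888 in the library labelled OE-UNC5B, or 23.7 and 29.05 FPKM, with a log2 fold change of 0.24 (0.17 to 0.32). It alone gave 7.72% and 8.87% of the members' reads, and without it the scaled sum was higher by 0.03 on the log2 scale. The next levels were those of ZNF787 (14.9 and 16.8 FPKM), ZNF428 (12.3 and 12.7), ZNF700 (11.2 and 9.59) and ZNF865 (10.1 and 10.1). Then came ZNF121 (8.10 and 7.48 FPKM), ZNF581 (7.96 and 8.76) and ZNF580 (6.64 and 8.22). None of these 8 genes differed by 1.5-fold between the libraries, and their log2 fold changes lay between -0.27 in ZNF700 and 0.26 in ZNF580. With trends on GC content and length subtracted, they lay between -0.32 in ZNF700 and 0.50 in ZNF580. ZNF428 and ZNF865, just below 0 before, then had 0.23 and 0.25. ZNF580 and ZNF581 overlap each other on the same strand, so their reads cannot be fully told apart.

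Among members with at least 100 reads, the genes with the largest decreases came from several clusters. ZNF791 (chr19:12610918-12633840) had 866 reads in Vector against 341 in the library labelled OE-UNC5B, which was 2.99-fold lower at a log2 fold change of -1.58 (-1.77 to -1.40). It was the most read of the members that were lower by at least 1.5-fold. ZNF17 (chr19:57411163-57421939) had 194 and 87 reads, with a log2 fold change of -1.39 (-1.78 to -1.02). ZNF875 (chr19:37312837-37369365), earlier called HKR1, had 198 and 121 reads and a value of -0.95 (-1.29 to -0.61). ZNF584 had 204 and 122 reads, ZNF569 had 158 and 104, and the pseudogene ZNF887P had 74 and 41, at values of -0.98, -0.84 and -1.08. ZNF671, studied as a candidate tumour suppressor in carcinomas, had 131 and 88 reads and a value of -0.81 (-1.22 to -0.41). All of these genes were lower, and the interval of ZNF887P, ZNF569 and ZNF671 reached within 1.5-fold.

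The largest increases among members with at least 100 reads also lay in several clusters. ZNF583 (chr19:56397966-56436035) had 24 reads in Vector against 159 in the library labelled OE-UNC5B, which was 5.52-fold higher at a log2 fold change of 2.47 (1.87 to 3.18). ZNF302 (chr19:34677639-34686397) had 63 and 266 reads and a value of 1.83 (1.44 to 2.26). ZNF333 (chr19:14689801-14733746) had 98 and 358 reads and a value of 1.63 (1.31 to 1.97). Intervals this far from 0 show that the reads of the 2 libraries differ beyond counting error and not that the conditions do. ZNF227 had 159 and 455 reads at 1.28, ZNF420, a KRAB protein known as a negative regulator of p53, had 94 and 231 at 1.06, and ZNF180 had 124 and 281 at 0.94. ZNF419 had 64 and 140 reads at 0.89 (0.46 to 1.34), the least of the 8 highest, and its interval reached within 1.5-fold. A further pair of members with under 100 reads lay as far out, and they were singled out after their values were seen. ZNF546 had 71 and 17 reads at -2.27 (-3.16 to -1.52), and ZNF559 had 14 and 72 reads at 2.08 (1.29 to 3.07).

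**Figure D2:**
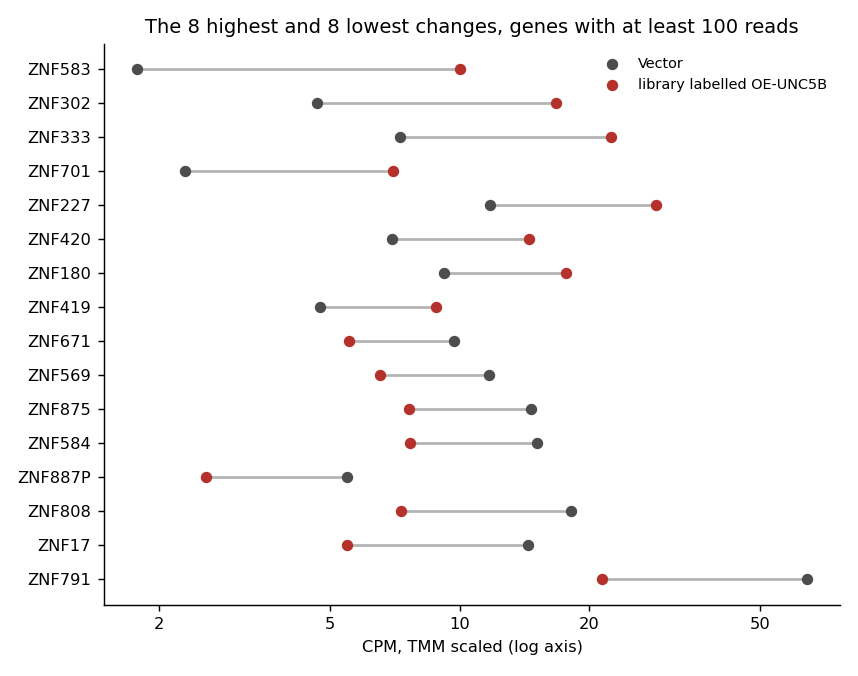
CPM, scaled with TMM factors and on a log axis, of the 8 members with the highest and the 8 with the lowest log2 fold change among those with at least 100 reads; grey points are Vector, red points are the library labelled OE-UNC5B, and each point is 1 library. The pairs run from ZNF583 at the top, 5.52-fold higher in the library labelled OE-UNC5B, to ZNF791 at the bottom, 2.99-fold lower.

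Several of these genes overlap other genes, and the way reads were divided between them is not given in the sources used here. ZNF808, a KRAB protein needed for pancreas development, and ZNF701 overlap on the same strand (chr19:52527652-52564464 and chr19:52555822-52587174). ZNF808 had 245 reads in Vector against 116 in the library labelled OE-UNC5B (-1.31, -1.65 to -0.99), and ZNF701 had 31 and 111 (1.59, 1.02 to 2.23). The values of this pair lay on opposite sides of 0, and their summed reads were 276 and 227, a log2 fold change of -0.52. ZNF559 overlaps a readthrough gene with ZNF177 that had 14 and 24 reads. ZNF333 overlaps ADGRE2, an adhesion receptor gene of myeloid cells on the other strand, which had 457 and 936 reads and was higher too. ZNF227 overlaps ZNF235 on the other strand (50 and 74 reads), and ZNF791 overlaps ZNF490 likewise (162 and 213 reads). Whether strand was used in counting is not stated, and without strand the reads of such partners cannot be told apart. ZNF302, ZNF180 and ZNF546 overlap no other gene of the table.

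In all, 108 members overlapped another gene of the table, whether or not that gene had reads, and 37 did not. Among the 37, 1 was lower (2.70%) and 2 were higher (5.41%) by at least 1.5-fold, which were ZNF546, ZNF302 and ZNF180. Among the 108, 13 were lower (12.04%) and 17 were higher (15.7%). Of the higher ones, ZNF583, ZNF419, ZNF493, ZNF558 and ZNF699 overlapped only a gene with 0 reads in both libraries, whereas each of the 13 overlapped a gene with reads. Over all genes, the corresponding shares were 9.46% and 8.81% without overlap, and 8.89% and 10.6% with overlap. Both shares of the members were lower without overlap than with it, and this gap was not tested. The ZNF genes on other chromosomes had shares of 1.37% and 9.59% without overlap, and 6.30% and 14.2% with overlap. The median reads of the 37 and 108 members were 397 and 310.5, and their median log2 fold changes were 0.08 and 0.02.

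Along the chromosome, the ZNF genes formed 17 clusters or single genes when neighbours under 1 Mb apart were joined, and 15 of them held members. The median log2 fold change lay between -0.26 and 0.21 in each of the 7 clusters with at least 10 members. Of these 7, the cluster at chr19:11483427-12640098 had the lowest median, -0.26 over 17 members. Its reads summed to 3685 in Vector against 3197 in the library labelled OE-UNC5B, a log2 fold change of -0.44 (-0.51 to -0.37). Of the 17 members, 10 were below 0. ZNF791, ZNF627 (399 and 282 reads) and ZNF887P were lower by at least 1.5-fold and 0 were higher, against 9.09% and 9.98% of all genes. Such counts in this and the following clusters are small, are read against these shares and were not tested. Without ZNF791, the sums were 2819 and 2856, the log2 fold change of the sum was -0.22 and the median was -0.25. The most read member was ZNF700 (932 and 910 reads, -0.27). The 4 other genes within this cluster had a median of 0.16.

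The highest median of the clusters with at least 10 members was 0.21, over 10 members at chr19:7069444-9793180. Its sums were 4196 and 5418 reads, with ZNF266 (678 and 1085 reads, 0.44) giving the largest shift in scaled reads and ZNF121 (1014 and 1067, -0.16) the most reads. ZNF558 (358 and 655 reads), ZNF699 (29 and 54) and ZNF559 were higher by at least 1.5-fold there and 0 were lower, against 9.98% and 9.09% of all genes. The 30 other genes of the cluster had a median of -0.23, with 17 below 0. In the cluster at chr19:19668796-24129961, which lies near the centromere, 25 of 42 ZNF genes had 0 reads in both libraries. Its 11 members had a median of 0.08, or -0.06 with trends on GC content and length subtracted, from ZNF100 (585 and 463 reads, -0.57) to ZNF493 (559 and 1020, 0.63). ZNF431 was the most read member there, with 983 and 1031 reads and a value of -0.17.

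On the long arm, 16 members of the cluster at chr19:36182060-37817300 had a median of 0.13 and sums of 4407 and 5952 reads. Without ZNF146, these sums were 1622 and 2064. ZNF875 and ZNF569 were lower there, and ZNF420, ZNF566 (68 and 138 reads), ZNF345 (21 and 41) and ZNF585A (24 and 45) were higher by at least 1.5-fold. The 15 members at chr19:43525497-45076588, among them the relatives of ZNF224, had a median of 0.12. ZNF224, a KRAB protein first described as a repressor of the aldolase A gene, had 452 and 644 reads (0.27, 0.10 to 0.45). Its relatives ZNF225, ZNF226 and ZNF234 had values of 0.07, 0.12 and 0.25, and ZNF230 had -0.41. ZNF227 and ZNF180 were higher, as was ZNF575 (28 and 52 reads), and ZNF576 (291 and 208 reads, -0.72) was the only member of this cluster lower by at least 1.5-fold. The 17 members at chr19:51571298-53580269 had a median of 0.11, or 0.01 with trends on GC content and length subtracted, with ZNF766 (432 and 678 reads, 0.41) read most.

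The largest cluster, at chr19:55476332-58481230 near the end of the long arm, held 42 members of 60 ZNF genes. Its sums were 8939 and 10455 reads, a log2 fold change of -0.01 (-0.05 to 0.03), and its median was -0.02, with 23 members below 0. That median was 0.03 with library totals and 0.05 with trends on GC content and length subtracted. The sum was thus level although ZNF583 at 2.47 and ZNF17 at -1.39 lay in it. ZNF587, the most read member, had 1104 and 1182 reads (-0.14, -0.26 to -0.02). Lower by at least 1.5-fold were ZNF17, ZNF584, ZNF671, ZNF524 (230 and 158 reads) and ZNF460 (70 and 50), and higher were ZNF583 and ZNF419. Of the smaller groups, ZNF302, ZNF181 and ZNF792 lay together and had sums of 310 and 536 reads, but without ZNF302 the sums were 247 and 270. ZNF546, ZNF780B (370 and 779 reads, 0.84) and ZNF780A (301 and 490, 0.47) lay side by side and held values on both sides of 0. The 5 members nearest the short arm's end had a median of 0.11, with ZNF556 read most (252 and 216 reads, -0.46), and ZNF574 (618 and 655, -0.15) was the more read of a pair.

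**Figure D3:**
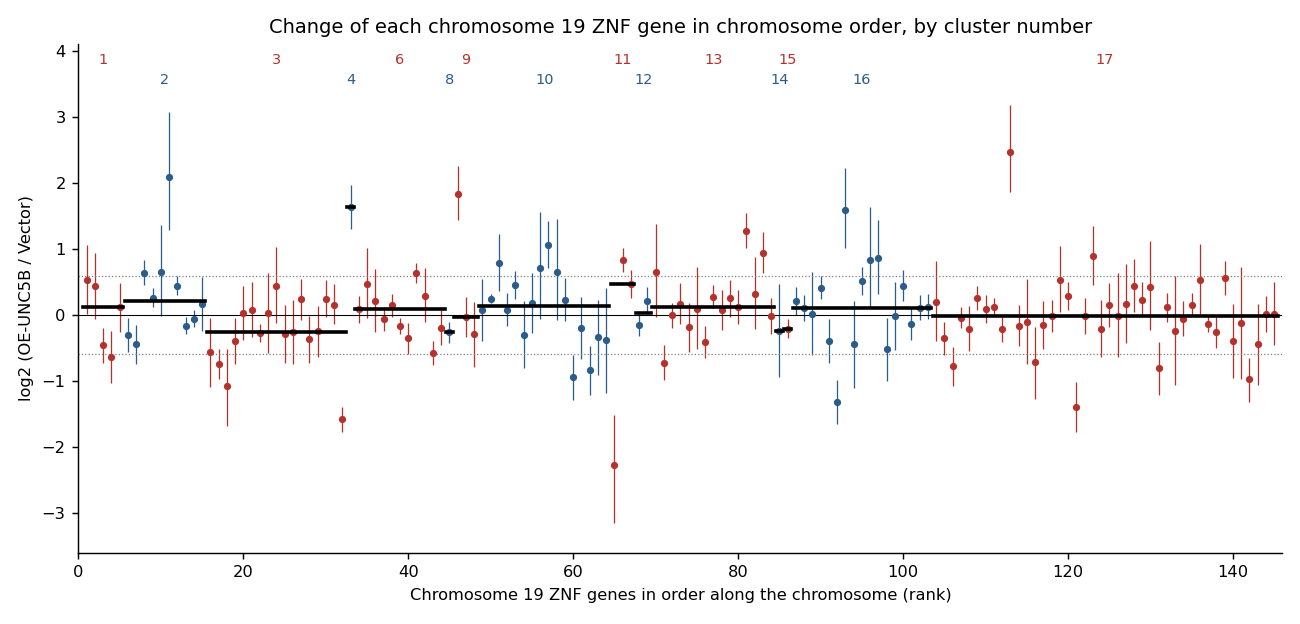
Log2 fold change (library labelled OE-UNC5B over Vector) of each of the 145 members in their order along chromosome 19; bars are 95% intervals of the reads, black lines are cluster medians, numbers above are clusters counted along the chromosome, and dotted lines mark 1.5-fold. Points scatter on both sides of 0 in every cluster with at least 10 members, and the black line of cluster 3, the one with ZNF791, is lowest among those at -0.26.

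Direct neighbours within a cluster often differed. Over 130 pairs of neighbours, Spearman's rho between their log2 fold changes was 0.12, 71 pairs had the same sign and the median absolute difference was 0.42. For the 115 pairs that do not overlap, rho was 0.11. All pairs come from the same 2 libraries, and neighbours can share sequence. The rank correlation of the log2 fold change with position along the chromosome was -0.01. Among paralogs with shared sequence, ZNF443 and ZNF799 had values of -0.25 and -0.37, and ZNF587 and ZNF417 had -0.14 and -0.27. ZNF814, which shares most with ZNF587 but also overlaps it on the other strand, had 49 and 84 reads and a value of 0.53.

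Positions with a single member were held by ZNF333, described above, and by ZNF507, ZNF473 and ZNF114. ZNF507 had 662 and 649 reads at -0.27, and ZNF473, a component of the machinery that processes histone pre-mRNA, had 846 and 864 at -0.21. ZNF114 had 37 and 37 reads and shares its strand with CARD8-AS1 and ZSWIM9, whose loci overlap it. None of ZNF507, ZNF473 and ZNF114 differed by 1.5-fold.

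Longer genes had higher values in the library labelled OE-UNC5B, among the members as over all genes. The exon length, recovered from the ratio of the deposited counts to FPKM, had a median of 9124 bases in the members and 7705 bases in all genes. In 5 length classes of equal size over all genes, the members' median log2 fold change was -0.18 (14 members, up to 3660 bases), -0.03, 0.02, 0.04 and 0.23 (36 members, over 13027 bases). The medians of all genes were -0.15, -0.09, -0.00, 0.03 and 0.16. Spearman's rho with exon length was 0.30 over the 145 members and 0.22 over all genes. The points share the same 2 libraries and the correlations are given as a description. In the longest class, 9 of 36 members (25%) were higher by at least 1.5-fold, against 15.3% of all genes of that class, and 2 were lower (5.56%, against 4.92%).

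The 9 long members with such an increase were ZNF302, ZNF333, ZNF559, ZNF180, ZNF419, ZNF493, ZNF566, ZNF345 and ZNF585A. In the shortest class, 2 of 14 members were lower (14.3%, against 14.6% of all genes) and 0 were higher, against 8.95% of all genes. The longest member went the other way, since ZNF875 has 25253 exon bases and a value of -0.95. With the length trend of all genes subtracted, the members' median stayed at 0.03, 14 were lower and 17 were higher by at least 1.5-fold (9.66% and 11.7%, against 8.29% and 9.50% of all genes). With trends on GC content and length subtracted, 15 were lower and 14 were higher (10.3% and 9.66%, against 7.60% and 9.20% of all genes), so increases no longer outnumbered decreases. Under this subtraction ZNF791 had a value of -1.70 and ZNF583 had 2.31, and the sides of the 16 extreme genes did not change. GC content itself had a rho of -0.12 in the members and -0.22 in all genes. The number of fingers had a rho of 0.06, the unique share of the sequence -0.04 and the reads 0.00.

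**Figure D4:**
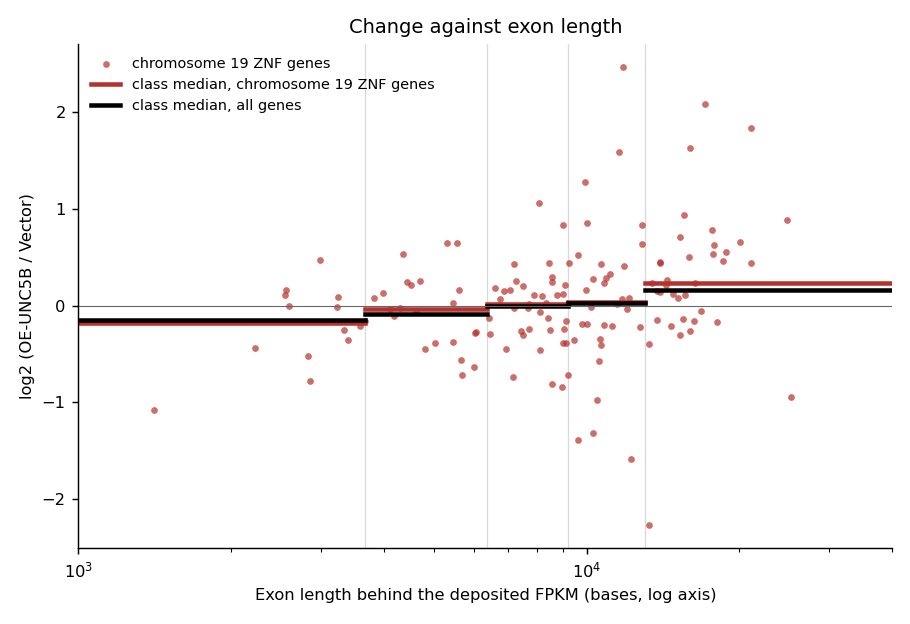
Log2 fold change (library labelled OE-UNC5B over Vector) against exon length in bases on a log axis for the chromosome 19 ZNF genes (red points); red and black lines are the medians of the members and of all genes in 5 length classes bounded by grey lines. Both lines climb from the shortest class (-0.18 and -0.15) to the longest (0.23 and 0.16), and the red points scatter widely around them.

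ZNF genes elsewhere in the genome were compared with those of chromosome 19, since both encode the same kind of protein. The 200 ZNF genes on other chromosomes had a median log2 fold change of 0.16, which was 0.13 above that of the chromosome 19 members. With the length trend subtracted, alone or with that on GC content, the members' median minus that of this group was -0.08 and -0.09. Of the 200 genes, 4.50% were lower and 12.5% were higher by at least 1.5-fold. The other 754 genes on chromosome 19 had a median of -0.15, with 12.5% lower and 5.57% higher. The ZNF genes thus lay 0.18 above the other genes of their chromosome. These other genes have a median GC content of 59.9%, the members 44.8%, and with trends on GC content and length subtracted the gap was 0.06. The 102 other genes that lie between the ZNF genes, within their clusters, had a median of -0.06. None of these gaps could be tested against variation between cultures.

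**Figure D5:**
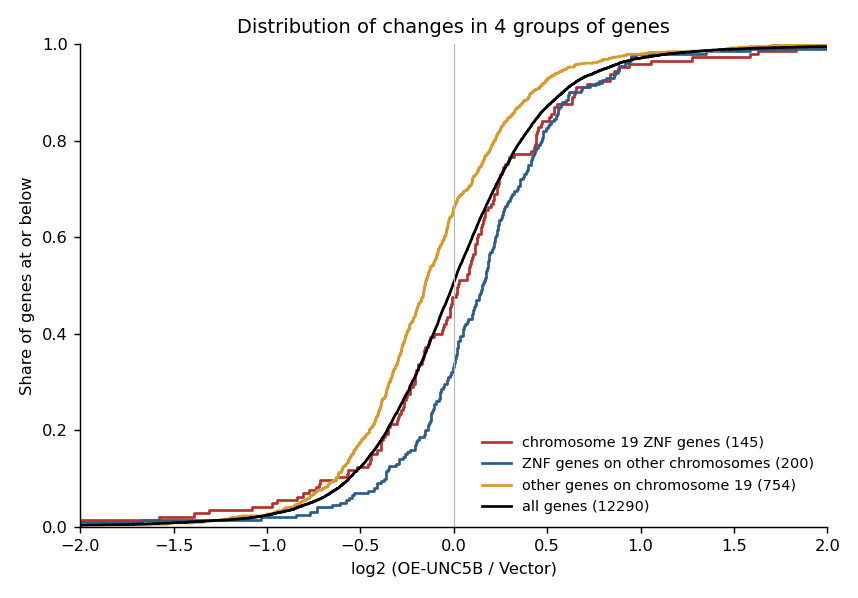
Share of genes (y axis) at or below each log2 fold change (x axis, library labelled OE-UNC5B over Vector) in 4 groups of genes with at least 50 reads. The curve of the 145 chromosome 19 ZNF genes runs close to that of all genes, with medians of 0.03 and -0.01, while the other genes of chromosome 19 lie to the left and ZNF genes of other chromosomes to the right.

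Members with a known role were described one by one. ZNF274, a KRAB protein that brings SETDB1 to the ends of ZNF genes themselves, had 200 reads in Vector against 346 in the library labelled OE-UNC5B, at 0.55 (0.30 to 0.81). ZNF587 and ZNF417, which bind endogenous retroviral sequences, had values of -0.14 and -0.27 and share much of their sequence. ZNF175, reported to act against HIV in macrophages, had 330 and 450 reads at 0.21 (0.00 to 0.42). The finger-only protein ZNF260 had 247 and 308 reads at 0.08, and ZNF444, which carries a SCAN dimerization domain, had 463 and 469 at -0.22. ZNF446, also with a SCAN domain, had 72 and 86 at 0.02. It overlaps ZNF324 (211 and 251 reads) on the same strand, so their reads cannot be fully told apart. Apart from ZNF808 and ZNF671, described above, none of the members in this list differed by 1.5-fold, although ZNF274 lay just past it with library totals (0.60) and with DESeq2 size factors (0.59). ZNF260 turned to -0.20 with trends on GC content and length subtracted.

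Other well studied chromosome 19 ZNF genes were below the read minimum. ZNF91 and ZNF93, which silence SVA and LINE-1 transposable elements in primates, had 5 and 0 reads (ZNF91) and 0 and 0 (ZNF93). ZNF350, a BRCA1-binding repressor, had 0 reads in both libraries, as did ZNF471, and ZNF649 had 2 and 0. ZNF331 had 5 and 6 reads, ZNF154 1 and 4 and ZNF382 7 and 19. These counts are too low to show a difference, and the limit that 0 reads allow, 3 reads, corresponds to 0.222 CPM in Vector and 0.189 CPM in the library labelled OE-UNC5B. At the minimum itself, the members just inside were ZNF497 (25 and 27 reads), ZNF586 (27 and 27) and ZNF573 (31 and 28). Just outside were ZNF571 (14 and 24), ZNF253 (13 and 23) and ZNF530 (21 and 15).

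By domain, the 111 members with the KRAB pattern had a median log2 fold change of 0.07, with 11 lower (9.91%) and 15 higher (13.5%) by at least 1.5-fold, against 9.09% and 9.98% of all genes. The 30 protein-coding members without the pattern had a median of 0.01, with 2 lower (6.67%) and 4 higher (13.3%). The latter had a higher median level, 3.03 and 2.66 FPKM against 1.09 and 1.10 FPKM, and a median GC content of 61.7% against 44.1%. With trends on GC content and length subtracted, the order of the medians reversed, at 0.02 with the pattern and 0.14 without it. Of the 4 pseudogenes, 3 were below 0, and ZNF887P was lower by at least 1.5-fold.

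The partners through which KRAB zinc finger proteins act were examined next. Of 26 corepressor and heterochromatin genes, all had at least 50 reads, 0 were lower and 1 was higher by at least 1.5-fold (against 9.09% and 9.98% of all genes), and their median log2 fold change was 0.10. TRIM28, the protein that KRAB binds, had 8012 reads in Vector against 7697 in the library labelled OE-UNC5B, at -0.29 (-0.34 to -0.25), and at -0.18 with trends on GC content and length subtracted. SETDB1 had 989 and 1389 reads at 0.25 (0.13 to 0.37). The gene past 1.5-fold was ATF7IP, which stabilizes SETDB1, with 462 and 1062 reads at 0.96 (0.80 to 1.12), and 0.61 with trends on GC content and length subtracted.

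Among the HP1 proteins, which bind methylated H3 lysine 9, CBX5 had 2247 and 3607 reads at 0.45, whereas CBX1 and CBX3 had values of -0.27 and -0.14. DAXX, a histone H3.3 chaperone, had the lowest value of the list, -0.57 (1209 and 962 reads), and its partner ATRX had 0.48 (782 and 1286). The HUSH complex members TASOR, MPHOSPH8 and PPHLN1 had values between 0.10 and 0.15, and the HUSH effector MORC2 had 0.48. CHD4, the remodeller of the NuRD complex, had 4584 and 7583 reads at 0.49, while HDAC1 and HDAC2 of the same complex had -0.07 and 0.10. SUV39H1, another H3 lysine 9 methyltransferase, had 362 and 313 reads at -0.45. The values of the HP1 proteins, of DAXX with ATRX and of the NuRD members thus lay on both sides of 0. With trends on GC content and length subtracted, CBX5 had 0.21 and ATRX 0.06, and TASOR, PPHLN1 and HDAC2 turned to -0.20, -0.15 and -0.19.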

How the data were processed

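RNA-seq of 1 Vector and 1 OE-UNC5B library of MOLM-13 cells was analysed. For each gene the authors deposited unnormalized counts of reads, and FPKM. The submitters' processing notes name bcl2fastq 2.19, HISAT2 2.0.4, StringTie 1.3.0 and GRCh38; the gene annotation and whether strand was used are not given in the sources used here. Counts divided by FPKM gave the same exon length in both libraries. Counts were scaled with TMM factors (edgeR 4.0.16, R 4.3.3), which were 0.984 and 1.02, and log2 fold changes used 0.5 added reads. With 1 library per group no test was possible, and a gene was counted at 1.5-fold or 2-fold. Intervals of the read ratio are 95% Clopper-Pearson (scipy 1.17.1). Their calculation was checked on counts simulated with counting error alone, which leaves out variation between cultures and errors in read assignment. Trends on length and GC content were lowess fits over all genes (statsmodels 0.14.6). Biotypes, domains and sequences came from GENCODE 44, in which 99.3% of the 12290 genes had a GC content. All 145 members overlap their GENCODE locus. Named genes were UNC5B, the 8 highest and 8 lowest members with at least 100 reads, the 8 highest in mean FPKM, the most read of each cluster, 3 on each side of the read minimum, and lists of known members and corepressors. Others named were chosen after their values were seen. The members and lists were chosen with earlier results of these data known. The alternatives tried were size factors of DESeq2 1.42.0, library totals, FPKM, added reads, read minimums, trends, and subsets of members.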

Additional observations from a re-analysis of the deposited data

How the results depend on the processing

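The members' median log2 fold change stayed above 0 under all alternatives run, from 0.01 to 0.08, and the median of all genes shifted by under 0.1 between scalings. The summed reads had a log2 ratio of 0.0927 with library totals and with the scaling of the deposited FPKM, 0.0802 with DESeq2 size factors and 0.0890 over members that overlap no other gene, against 0.0448. The counts of members lower and higher by at least 1.5-fold were 14 and 19, and they were 35 and 32 of 198 with no read minimum (17.7% and 16.2%, against 21.4% and 19.9% of all genes), 1 and 2 of 37 over members that overlap no other gene, and 5 and 7 at 2-fold, which follows from the stricter fold. Over the 104 members with at least 90% unique sequence, 8 were lower (7.69%) and 14 were higher (13.5%), against 9.09% and 9.98% of all genes, which were not filtered on unique sequence. The gap to the other chromosome 19 genes was 0.18, and 0.0555 with trends on GC content and length subtracted; the gap to ZNF genes on other chromosomes was -0.13, and between -0.13 and -0.08 under the alternatives. Other causes were not tested. Joining genes under 2 Mb apart merged the cluster with ZNF791, at -0.26, with that of ZNF121, at 0.21, into 1 with a median of -0.06, and took the cluster of ZNF766 from 0.11 to -0.01. Cluster medians near 0 changed sign under some alternatives, as did that of the 3 genes with ZNF302, from -0.03 to 0.01 with library totals. Leaving out ZNF791 was added after seeing the data. For the 67 single genes, 365 of the values under alternatives stayed within the gene's read interval, 37 left it and 0 genes with an interval wholly past 1.5-fold changed sign. No paired analysis was possible because each group has 1 library, and for the same reason no library could be left out. Depth limits members under 200 reads most, and the median read interval was 0.66 wide on the log2 scale.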
